A study of Mus musculus with 6 samples.

Results

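The genes described here encode the main folding chaperones of the cytosol and the mitochondrial matrix and their closest partners: the HSP90 proteins Hsp90aa1 and Hsp90ab1, the HSP70 proteins Hspa8 and Hspa9, the HSP110 proteins Hspa4 and Hsph1, HSP60 (Hspd1) and its lid HSP10 (Hspe1), the J-domain protein Dnaja1, and the adaptor Stip1. These 10 genes were taken by symbol from the 25654 gene identifiers with a value, and all 10 were found. Their RNA was measured in CD8 T cells, which kill cells that carry a virus or have turned malignant, from spleens of female wild-type (WT) C57BL/6 mice that were around 65 weeks old (Aged) or 6 weeks old (Young), with 3 libraries in each group. Cells of both groups had been activated for 2 days on antibodies to the T cell receptor (3 μg/ml) and CD28 (1 μg/ml) with interleukin 2 at 10 ng/ml, and were then held in interleukin 2 for 5 further days before RNA was taken. The comparison asked how the cultured cells of old mice differ in gene expression from those of young mice. The labels call the libraries biological replicates but do not say that each came from its own mouse, so p-values measure the spread between these libraries, and age cannot be told apart from any difference between the cultures.

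HSP70 proteins bind short hydrophobic stretches of unfolded proteins and release them in cycles driven by ATP. J-domain proteins bring the client and start ATP hydrolysis, and nucleotide exchange factors such as the HSP110 proteins end the cycle. Stip1, also called HOP, passes clients from HSP70 to HSP90, which finishes the maturation of kinases, steroid receptors and other signalling proteins. Inside mitochondria, Hspa9 pulls proteins in through the inner membrane and the HSP60 and HSP10 chamber folds them. Activated T cells make large amounts of new protein and need this system.

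The libraries held 1952552 to 2785915 reads each. Values are counts per 1000000 reads (CPM) from a library type that reads the 3' end of each transcript, so they do not grow with gene length. Levels of different genes are set side by side here only with a limit: reads of Hspa8, Dnaja1, Hspe1, Hspd1 and Hsp90aa1 can match near-copies, as described at the end, and how such reads were counted is not given. Markers of the labelled cell type were present in all libraries: the 7 CD8 T cell markers summed to 1729 to 1921 CPM in Aged and 2281 to 2383 CPM in Young libraries. Of these markers 5 fell in Aged cells, Cd3d, Cd3e, Cd3g, Cd8b1 and Cd2, while Cd8a and Cd5 did not pass the test, and over all tested genes 12.5% were called lower. Markers of CD4 T cells, dendritic cells and erythroid cells summed to at most 6.66 CPM in any Aged and 22.3 CPM in any Young library, with Cd79a, Ms4a1, Pax5, Lyz2, Adgre1, S100a8, Flt3, Siglech and Hbb-bs at 0 reads in all. Erythroid markers summed to 1.15 to 4.71 CPM in Aged and 10.0 to 22.3 CPM in Young libraries, and the B cell marker Cd79b was at 0 to 1.53 CPM in Aged and 2.51 to 9.99 CPM in Young libraries. Those of monocytes, macrophages and granulocytes summed to 8.19 to 19.8 CPM in Aged and 14.6 to 21.7 CPM in Young libraries, and those of natural killer cells to 24.5 to 33.8 CPM in Aged and 21.1 to 30.4 CPM in Young libraries. The natural killer marker Klre1 was called higher, at 13.1 ± 3.05 CPM in Aged and 3.12 ± 2.07 CPM in Young cells. Klrb1c did not pass, at 15.7 ± 3.34 CPM in Aged and 22.8 ± 3.36 CPM in Young cells. Cd68, Itgam, Cd79b and Hbb-bt were called lower, and the other markers outside the CD8 list did not pass or were too low to be tested. The part of these marker differences in the results below was not tested. In a bulk sample, fewer cells of a type and less RNA per cell cannot be told apart.

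All 10 chaperone genes were higher in Aged cells. Each of them passed the test across all genes (limma on log2(CPM + 1), Benjamini-Hochberg adjusted p under 0.05), and for each the lowest Aged library lay above the highest Young library. Of all 10511 genes tested, 16.2% were called higher, 12.5% were called lower, and 22.5% had every Aged library above every Young library. With TMM or RLE scaling more genes were called lower than higher (1432 higher and 1549 lower, and 1451 higher and 1532 lower). Among the 2403 tested genes with a mean at least that of Hsph1, the least abundant of the 10 at 70.0 CPM, 31.8% were called higher and 21.1% lower. The fold changes, as ratios of group means, ran from 1.14 for Hsp90ab1 to 1.75 for Hspd1, and the median of the 10 log2 fold changes was 0.46, where that of all tested genes was 0.03. Summed, the 10 genes took 1.28 ± 0.0346% of all reads in Aged and 0.991 ± 0.0212% in Young libraries (SD, n = 3 per group). The 10 were put together with results of these data known, so the count of 10 is a description of these genes and not evidence about chaperones at large.

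**Figure D1:**
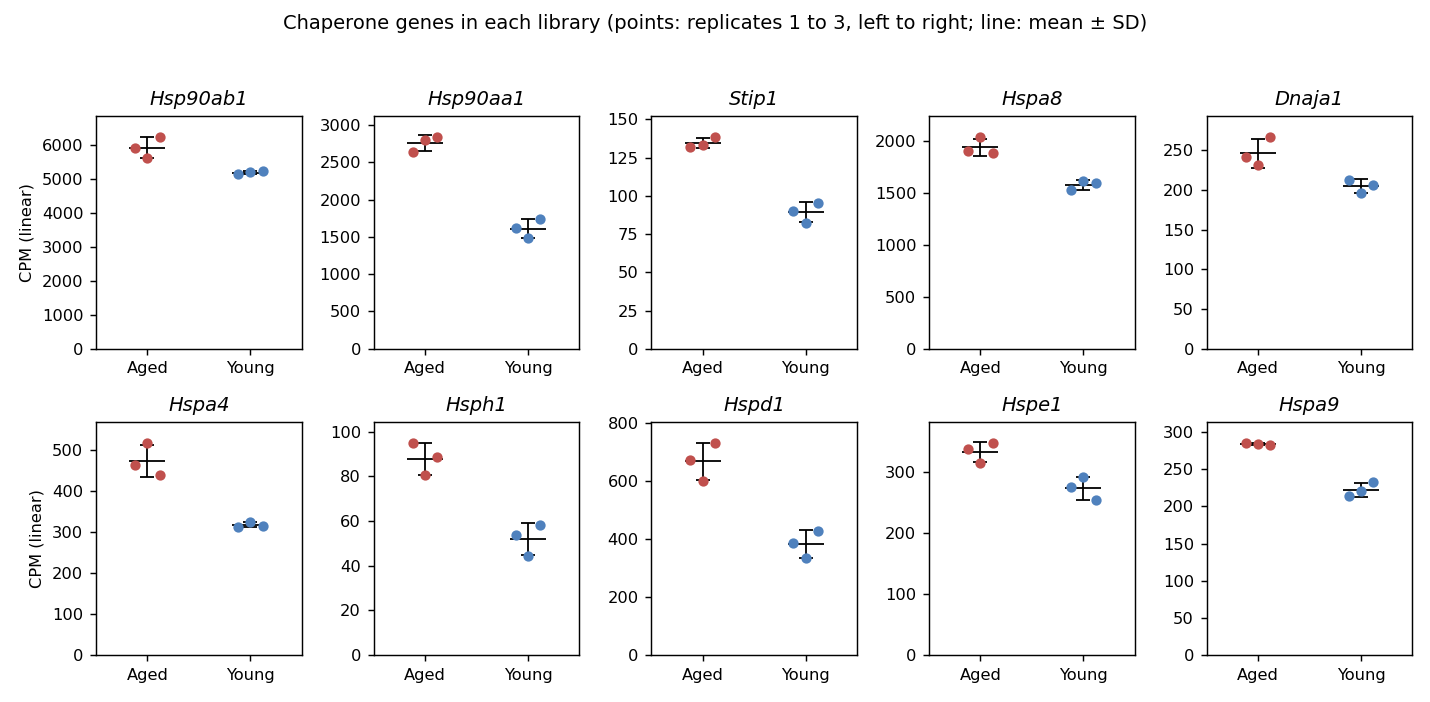
CPM of each chaperone gene in the 3 Aged (red, left) and 3 Young (blue, right) libraries on linear axes that start at 0; points are replicates 1 to 3 and lines the mean ± SD. In all 10 panels the Aged points lie above the Young points, by the largest folds for Hspd1 (1.75) and Hsp90aa1 (1.71).

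By the deposited counts the HSP90 pair was the most abundant of the group. In both Aged and Young cells the order by mean CPM was Hsp90ab1, Hsp90aa1, Hspa8, Hspd1, Hspa4, Hspe1, Hspa9, Dnaja1, Stip1 and Hsph1, and the library ranges of neighbours overlapped for Hsp90aa1 and Hspa8 in Young cells and for no other pair. The place of Hspa8 below Hsp90aa1 is uncertain, since near-copies share 73.7% of the 3' end words of Hspa8 and 37.6% of those of Hsp90aa1.

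Hsp90ab1, the beta form made at a high level in unstressed cells, had 5895, 5609 and 6220 CPM in the Aged libraries, against 5127, 5187 and 5236 CPM in the Young libraries. The groups do not overlap, but the range of the Aged libraries is wider than the gap between the groups. Hsp90ab1 averaged 5908 ± 306 CPM in Aged and 5184 ± 54.5 CPM in Young cells (SD, n = 3 each), 1.14-fold higher, with a log2 fold change of 0.19 ± 0.05 (SE) and a limma adjusted p of 0.00421. It was the smallest change of the 10, and it was not called with TMM scaling (log2 fold change 0.13, adjusted p = 0.0674). Nor was it called with edgeR's quasi-likelihood test on whole reads (0.13, adjusted p = 0.0532), which also scales by TMM.

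Hsp90aa1, the alpha form, which stress induces, moved much further. Its values were 2634.5, 2804 and 2835 CPM in Aged libraries and 1616, 1480 and 1740 CPM in Young libraries. The lowest Aged library was well above the highest Young one. The mean was 2758 ± 108 CPM in Aged and 1612 ± 130 CPM in Young cells, 1.71-fold higher (log2 fold change 0.78 ± 0.06 SE, limma adjusted p = 1.34e-08). In Young cells Hsp90aa1 stood at the level of Hspa8 (1577 ± 48.9 CPM), and the ranges of these genes overlapped there. In Aged cells every library had more Hsp90aa1 counted than any had Hspa8, with the same limit from near-copies.

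Within each library, Hsp90aa1 was 0.447, 0.5 and 0.456 of Hsp90ab1 in Aged cells and 0.315, 0.285 and 0.332 of it in Young cells. The mean ratio was 0.468 ± 0.0284 in Aged and 0.311 ± 0.0239 in Young cells, and the groups did not overlap. An exact two-sided permutation test on the log2 ratio gave p = 0.1, the smallest that 3 libraries against 3 allow, and 0.15 after Benjamini-Hochberg adjustment over the 3 ratios compared. This ratio needs no scaling between libraries. Both forms together made up 67.5 ± 0.866% of the summed CPM of the 10 genes in Aged and 68.5 ± 0.302% in Young libraries.

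Stip1, the adaptor that holds HSP70 and HSP90 together while a client is handed over, had 132, 133 and 138 CPM in Aged and 90.0, 82.6 and 95.7 CPM in Young libraries. Its Aged values lie within a narrow band above all Young values. The mean was 134.5 ± 3.37 CPM in Aged and 89.4 ± 6.58 CPM in Young cells, 1.5-fold higher (log2 fold change 0.59 ± 0.09 SE, limma adjusted p = 6.53e-05).

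**Figure D2:**
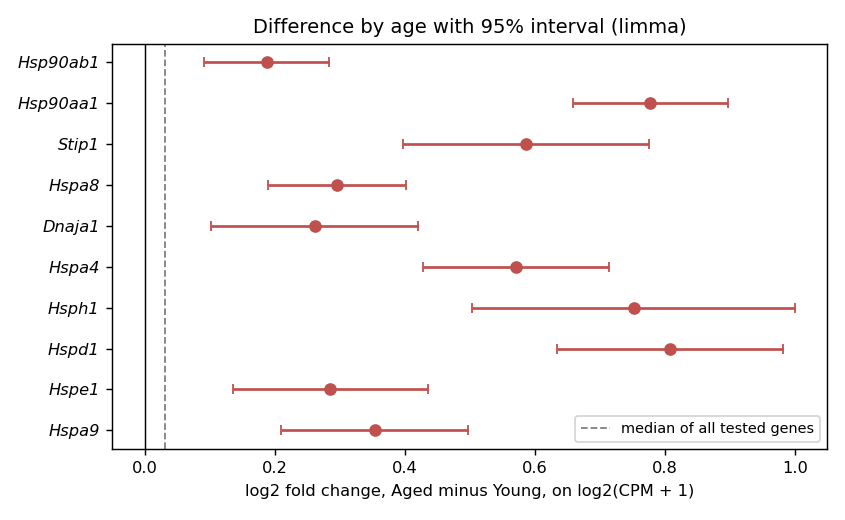
Log2 fold change, Aged minus Young on log2(CPM + 1), of the 10 chaperone genes with 95% intervals from limma; the dashed line is the median of all 10511 tested genes (0.03). The intervals lie above 0 for all 10, and those of Hsp90ab1 (0.09 to 0.28) and Hsp90aa1 (0.66 to 0.90) do not meet.

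Of the cytosolic HSP70 cycle, Hspa8 encodes HSC70, the form present in unstressed cells. It was at 1897, 2032 and 1881 CPM in Aged and 1522, 1616 and 1593 CPM in Young libraries. Both groups were tight, and the means of 1936 ± 83.0 CPM in Aged and 1577 ± 48.9 CPM in Young cells differed 1.23-fold (log2 fold change 0.30 ± 0.05 SE, limma adjusted p = 0.000184). Its J-domain partner Dnaja1 was at 241, 231 and 266 CPM in Aged and 213, 196 and 206 CPM in Young libraries. Here the lowest Aged and the highest Young library were close. The means were 246 ± 18.1 CPM in Aged and 205 ± 8.37 CPM in Young cells, 1.20-fold higher (log2 fold change 0.26 ± 0.08 SE, limma adjusted p = 0.0136). Dnaja1 was not called without Aged replicate 3 (log2 fold change 0.20, adjusted p = 0.0786), without Young replicate 2 (0.23, adjusted p = 0.056) or by DESeq2 on whole reads (0.21, adjusted p = 0.102).

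The HSP110 genes, whose proteins exchange the nucleotide of HSP70, both rose. Hspa4, the abundant member, was at 463, 516 and 440 CPM in Aged and 313, 325 and 315 CPM in Young libraries. The Aged libraries varied more than the Young ones, and the groups stood well apart. Its mean was 473 ± 39.3 CPM in Aged and 318 ± 6.40 CPM in Young cells, 1.49-fold higher (log2 fold change 0.57 ± 0.07 SE, limma adjusted p = 4.01e-06). Hsph1, which encodes HSP105 and is induced by heat, was at 94.7, 80.5 and 88.5 CPM in Aged and 53.9, 44.2 and 58.0 CPM in Young libraries. It was the least abundant of the 10, with 123 to 210 reads per library, and its spread within groups was among the widest. The mean was 87.9 ± 7.14 CPM in Aged and 52.0 ± 7.12 CPM in Young cells, 1.69-fold higher (log2 fold change 0.75 ± 0.12 SE, limma adjusted p = 8.31e-05). The ratio of Hsph1 to Hspa4 was 0.187 ± 0.0272 in Aged and 0.164 ± 0.0252 in Young cells, and these ranges overlapped (exact two-sided permutation p = 0.4). The log2 difference of this ratio was 0.19, and it was 0.06 without Young replicate 2, 0.12 without Aged replicate 1 and 0.32 without Aged replicate 2.

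The mitochondrial chaperonin genes lie head to head on chromosome 1. HSP60 forms the chamber and HSP10 closes it. Hspd1 (chr1:55077835-55088243, minus strand, GRCm38) was at 672, 600.3 and 728 CPM in Aged and 384, 333 and 428 CPM in Young libraries. It had the largest fold of the 10, 667 ± 64.0 CPM in Aged against 381 ± 47.5 CPM in Young cells, 1.75-fold higher (log2 fold change 0.81 ± 0.08 SE, limma adjusted p = 7.03e-07). Hspe1 (chr1:55088132-55091307, plus strand) was at 339, 315 and 348 CPM in Aged and 276, 292 and 255 CPM in Young libraries. Its groups did not overlap, and it averaged 334 ± 16.9 CPM in Aged and 274 ± 18.8 CPM in Young cells, 1.22-fold higher (log2 fold change 0.28 ± 0.07 SE, limma adjusted p = 0.00517).

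The balance between the partners was followed within each library. The ratio of Hspd1 to Hspe1 was 1.98, 1.91 and 2.09 in Aged libraries and 1.39, 1.14 and 1.68 in Young libraries, with means of 1.99 ± 0.0947 in Aged and 1.40 ± 0.270 in Young cells. The Young libraries were widely spread, yet all Aged ratios were above them (exact two-sided permutation p = 0.1, the smallest possible, and 0.15 adjusted over the 3 ratios). Their annotated exons overlap on opposite strands at the 5' ends, which a 3' end count should rarely touch. How the counting treated strand is not given in the sources used here.

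**Figure D3:**
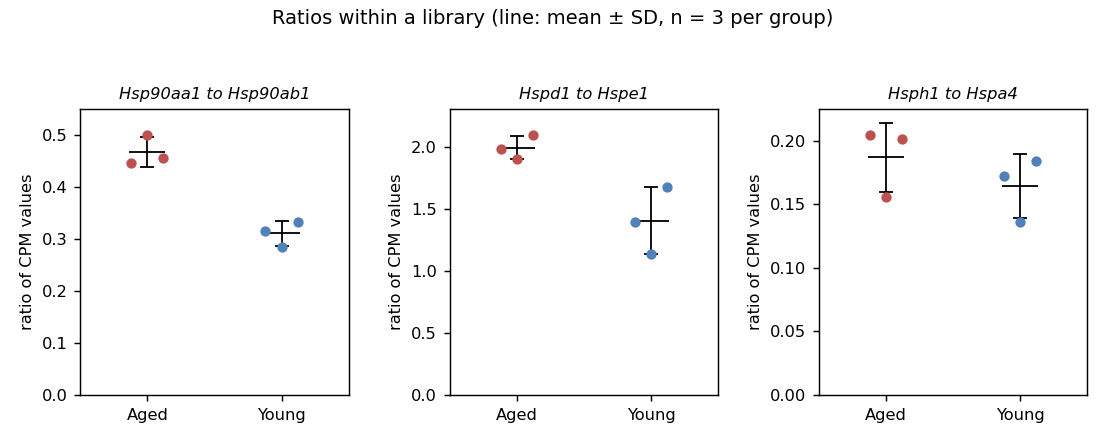
Ratio of the CPM values of paired chaperone genes within each library, Aged (red, left) and Young (blue, right), on linear axes that start at 0, with the mean ± SD of 3 libraries. The Aged points lie above all Young points for Hsp90aa1 to Hsp90ab1 and for Hspd1 to Hspe1, and overlap with them for Hsph1 to Hspa4.

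Hspa9, the mitochondrial HSP70 of the import motor, had 285, 284 and 283 CPM in Aged and 213, 220.4 and 232 CPM in Young libraries. The Aged libraries were nearly identical. The means were 284 ± 0.968 CPM in Aged and 222 ± 9.62 CPM in Young cells, 1.28-fold higher (log2 fold change 0.35 ± 0.07 SE, limma adjusted p = 0.000628).

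Many chaperone genes are controlled by heat shock factors, which bind heat shock elements, alternating inverted repeats of the letters GAA, and the promoter letters of the members were searched for these repeats. RefSeq windows of GRCm38.p6, each with 250 bases before to 50 after a start site, were matched by symbol for 6 of the 10 genes: Hspd1, Hspe1, Hsph1, Hspa4, Dnaja1 and Stip1. The searched patterns were GAANNTTC and TTCNNGAA, each its own reverse complement, the 3-unit forms GAANNTTCNNGAA and TTCNNGAANNTTC, and the 4-unit forms TTCNNGAANNTTCNNGAA and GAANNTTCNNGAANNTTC, so that a longer match also counts as the shorter ones it contains. Over all 32851 windows, GAANNTTC occurred in 7.86%, TTCNNGAA in 8.52%, a 3-unit form in 0.603% and a 4-unit form in 0.0244%, which is 8 windows. The windows of Hspd1 and Hspe1 overlap by 285 bases and hold the same 4-unit match. The stretch is shown from both strands, because the chaperonin pair shares it, together with the matches of Hsph1 and Dnaja1 and, for comparison, of the stress-induced HSP70 gene Hspa1a. Capitals mark the match, and each sequence reads 5' to 3' on the gene's strand.
Hspd1, chr1:55088053-55088082, minus strand: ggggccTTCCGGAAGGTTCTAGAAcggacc
Hspe1, chr1:55088053-55088082, plus strand: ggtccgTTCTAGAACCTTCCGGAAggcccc
Hsph1, chr5:149636279-149636308, minus strand: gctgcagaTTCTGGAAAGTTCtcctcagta
Dnaja1, chr4:40722318-40722377, plus strand: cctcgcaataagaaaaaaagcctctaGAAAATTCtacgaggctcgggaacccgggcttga
Hspa1a, chr17:34972227-34972286, minus strand: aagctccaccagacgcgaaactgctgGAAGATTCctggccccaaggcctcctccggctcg

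The shared 4-unit match lies between the RefSeq start sites of Hspe1 and of the shorter Hspd1 transcript, which are 216 bases apart. It also lies after the other RefSeq start site of Hspd1, at chr1:55088243. The Hsph1 match has 3 units and lies just after its start site. Dnaja1 and Hspa1a have a single GAANNTTC. Hspd1, with the 4-unit match, was 1.75-fold higher, and Hsph1, with the 3-unit match, 1.69-fold higher. Hspe1, which shares the 4-unit match, was 1.22-fold higher, and Dnaja1 1.20-fold higher. No GAA pattern was found in the windows of Hspa4 (1.49-fold) and Stip1 (1.5-fold). Chordc1, a zinc-binding HSP90 partner, has overlapping 4-unit matches of its own. Chordc1 was at 107 ± 9.33 CPM in Aged and 96.4 ± 10.2 CPM in Young cells (log2 fold change 0.15, 95% limits -0.06 and 0.37, limma adjusted p = 0.290). The letters CACGTG, the core of sites for MYC and related factors, occurred in windows of Hspd1 and Hsph1 and in 7.15% of all windows. Only exact matches inside the windows were searched. The part of any of these sites in the fold changes was not tested.

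The genes that cells switch on after heat or protein damage differed widely in level. Among them Hsp90aa1 and Hsph1 rose, as described above, and others were at or near 0. Hspa1a, the inducible HSP70, had 0 reads in every library, which allows at most 0.449 CPM over the Aged and 0.39 CPM over the Young group. Hspa1b, its near-identical copy, had 0 or 1 read in each library. The counts of this pair are uncertain, since how reads that match both were counted is not given. The small heat shock protein genes Hspb8 and Cryab also had 0 reads throughout. Dnajb1, the inducible J-domain partner of HSP70, was at 52.2, 45.2 and 54.6 CPM in Aged and 53.9, 50.6 and 61.5 CPM in Young libraries. These ranges overlap, and Dnajb1 did not pass (log2 fold change -0.12, 95% interval -0.38 to 0.13, limma adjusted p = 0.500). The small heat shock protein gene Hspb1 had at most 4 reads in a library. The list of stress-induced genes used here does not hold Hsp90aa1. Of its 14 genes 10 were tested: Hsph1 rose, Dnajb4, another J-domain gene, fell to 18.9 ± 2.28 CPM in Aged cells against 27.2 ± 4.41 CPM in Young cells (limma adjusted p = 0.0402), and 8 did not pass. With 1 of 10 in each direction the list was near the shares over all tested genes, 16.2% higher and 12.5% lower. Its median log2 fold change was -0.06. Hsph1 belongs to the 10 genes chosen with results known. Without it 0 of 9 tested genes rose and 1 fell, with a median log2 fold change of -0.07. Dnajb4 was not called without Aged replicate 2, Aged replicate 3, Young replicate 1 or Young replicate 2, when 0 genes of this list were called lower. Ubb, a polyubiquitin gene, was at 776 ± 16.2 CPM in Aged and 850 ± 27.2 CPM in Young cells (adjusted p = 0.0778), and Dnaja4 at 4.41 ± 0.845 CPM in Aged and 2.47 ± 0.526 CPM in Young cells (adjusted p = 0.179).

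**Figure D4:**
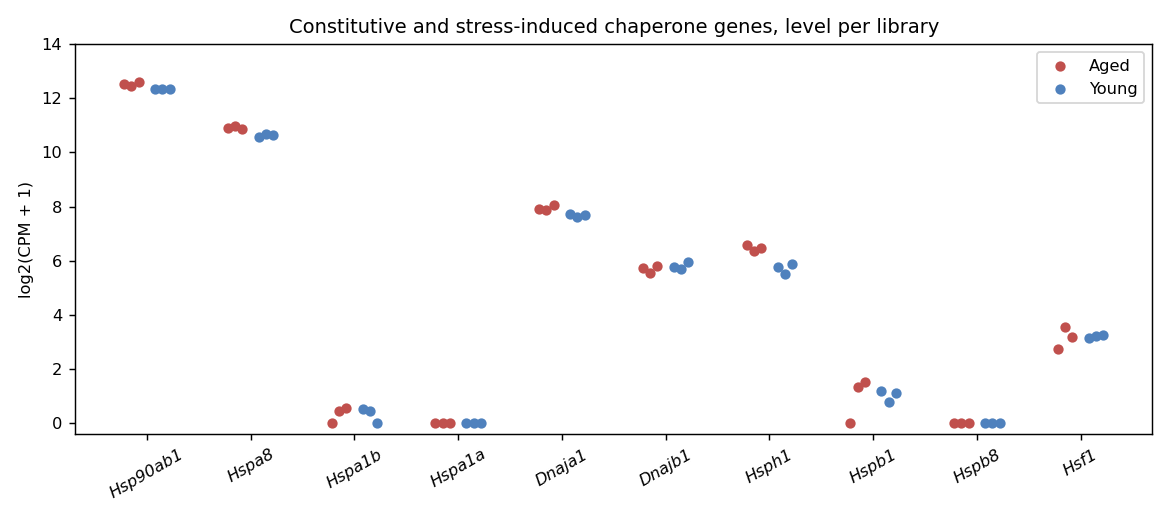
Level of constitutive and stress-induced chaperone genes and of Hsf1, as log2(CPM + 1), in each Aged (red) and Young (blue) library. Hspa8 and Hsp90ab1 stand above 10 on this scale in all libraries, while Hspa1a and Hspb8 are at 0 and Dnajb1 overlaps between groups.

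Among the factors and regulators of the stress responses, the heat shock factors and Atf5 were measured at low levels, and Hsbp1 at a higher one. Hsf1, the main heat shock factor, was at 8.12 ± 2.55 CPM in Aged and 8.18 ± 0.321 CPM in Young cells (log2 fold change -0.05, 95% interval -0.62 to 0.53, limma adjusted p = 0.928). Of the 5 tested factors and regulators 0 passed with limma, where 3 had unadjusted p under 0.05. Hsf2 was at 14.6 ± 2.95 CPM in Aged and 9.47 ± 1.72 CPM in Young cells (adjusted p = 0.0798), Hsf4 at 2.93 ± 1.62 CPM in Aged and 6.12 ± 0.642 CPM in Young cells (adjusted p = 0.0529), and Atf5, a factor of the mitochondrial unfolded protein response, at 13.3 ± 3.03 CPM in Aged and 18.9 ± 3.25 CPM in Young cells (adjusted p = 0.104). Hsbp1, an inhibitor of Hsf1, was at 60.1 ± 8.89 CPM in Aged and 65.4 ± 8.35 CPM in Young cells (adjusted p = 0.526). edgeR's quasi-likelihood test also called 0 of them, TMM scaling called 1 lower, and leaving out Aged replicate 3 gave 1 higher and 1 lower.

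Of 19 tested HSP90 co-chaperones, Stip1 included, 10 rose, 2 fell and 7 did not pass, with a median log2 fold change of 0.26. Without Stip1, which belongs to the 10 genes chosen with results known, 9 of 18 rose and 2 fell. Over all tested genes 16.2% were higher and 12.5% lower, and 31.8% and 21.1% among those as abundant as the 10. Ppid, the cyclophilin Cyp40, was at 60.7 ± 1.20 CPM in Aged and 26.9 ± 3.48 CPM in Young cells, 2.26-fold higher (limma adjusted p = 2.72e-06). Ptges3, which encodes p23 and steadies the closed form of HSP90, was at 396 ± 0.497 CPM in Aged and 244 ± 16.3 CPM in Young cells, 1.62-fold higher (adjusted p = 3.84e-07). Fkbp4, the steroid receptor partner FKBP52, was 1.71-fold higher (adjusted p = 6.81e-06), and Nudc 1.54-fold higher (adjusted p = 3.77e-05). The fallers were Fkbp5 (FKBP51), at 119 ± 7.07 CPM in Aged and 155 ± 11.7 CPM in Young cells (adjusted p = 0.00287), and Sugt1, at 144 ± 6.35 CPM in Aged and 182 ± 5.41 CPM in Young cells (adjusted p = 0.00294). Cdc37, which brings kinases to HSP90, was at 280 ± 22.7 CPM in Aged and 280 ± 8.74 CPM in Young cells (log2 fold change 0.00, 95% limits -0.15 and 0.15). Fkbp5, Sugt1 and Cdc37 were picked for mention after their values were seen.

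In the HSP70 and HSP110 family, 7 of 10 tested genes rose and 0 fell, and 5 further genes were too low to be tested. Of the 7 that rose, 4 belong to the 10 chosen with results known, and without them 3 of 6 rose, where 16.2% of all tested genes and 31.8% of the abundant ones did. Beside Hspa8, Hspa9, Hspa4 and Hsph1, those that rose were Hspa5, Hyou1 and Hspa14. Hspa5, the HSP70 of the endoplasmic reticulum, was at 1471 ± 19.7 CPM in Aged and 944 ± 35.8 CPM in Young cells, 1.56-fold higher (limma adjusted p = 3.64e-08), and its exchange factor Hyou1 was 1.92-fold higher, at 133 ± 8.45 CPM in Aged and 69.1 ± 7.18 CPM in Young cells (adjusted p = 1.12e-06). Hspa14, which in human cells pairs with the Dnajc2 product on the ribosome, was at 70.3 ± 5.67 CPM in Aged and 42.0 ± 4.25 CPM in Young cells, and its exons overlap those of Gm45902 on the same strand, so its value is uncertain. Hspa13 was at 24.1 ± 2.66 CPM in Aged and 17.1 ± 2.84 CPM in Young cells and did not pass (adjusted p = 0.0622). Among other HSP90 genes, Hsp90b1 of the endoplasmic reticulum was at 1179 ± 60.3 CPM in Aged and 837 ± 30.3 CPM in Young cells, 1.41-fold higher (adjusted p = 2.12e-06), with overlapping exons of other genes on both strands. Trap1, the mitochondrial HSP90, was at 27.6 ± 0.345 CPM in Aged and 27.6 ± 4.36 CPM in Young cells (log2 fold change 0.01, 95% limits -0.32 and 0.35, adjusted p = 0.964).

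J-domain partners of cytosolic HSP70 were mixed: 5 of 14 rose, Dnaja1 included, 1 fell and 8 did not pass, and without Young replicate 2 the higher count was 3. Without Dnaja1, 4 of 13 rose, near the 31.8% of abundant genes and above the 16.2% of all tested genes called higher. Dnajc2, whose product works at the ribosome, was at 391 ± 21.8 CPM in Aged and 270 ± 18.2 CPM in Young cells, 1.44-fold higher (limma adjusted p = 1.45e-05). Dnaja2, a close relative of Dnaja1, was 1.28-fold higher (adjusted p = 0.00066), and Dnajc21 was 1.35-fold higher (adjusted p = 0.00078). Of 10 exchange factors outside the HSP110 family 3 rose and 0 fell, where 16.2% of all tested genes were higher and 12.5% lower. They were Hspbp1 (1.49-fold, adjusted p = 0.00101), Bag5 (1.49-fold, adjusted p = 0.0317) and the mitochondrial Grpel1 (1.24-fold, adjusted p = 0.0407), and leaving out 1 library at a time left 1 or 2 genes of this list called, with 1 when Aged replicate 1, Aged replicate 3, Young replicate 1 or Young replicate 3 was left out. Bag3, which is induced by stress, was at 15.2 ± 4.03 CPM in Aged and 11.9 ± 3.17 CPM in Young cells and did not pass (adjusted p = 0.356).

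Among 17 tested mitochondrial chaperones and proteases 4 rose, and 3 of these were Hspd1, Hspe1 and Hspa9. Of the other 14, Grpel1 rose, Dnajc15 fell to 143 ± 15.2 CPM in Aged cells against 172 ± 1.07 CPM in Young cells (limma adjusted p = 0.0262), and 12 did not pass, so that the shares in both directions were below the 16.2% higher and 12.5% lower over all tested genes. Without Aged replicate 2, Young replicate 1 or Young replicate 2, 0 genes of the list were called lower, and without Aged replicate 1 there were 2. Clpx, the unfoldase of a matrix protease, was at 20.7 ± 2.15 CPM in Aged and 14.6 ± 3.36 CPM in Young cells (adjusted p = 0.0837). Hscb, a J-domain protein of iron-sulphur cluster assembly, was at 15.9 ± 3.53 CPM in Aged and 23.2 ± 4.48 CPM in Young cells (adjusted p = 0.0647).

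**Figure D5:**
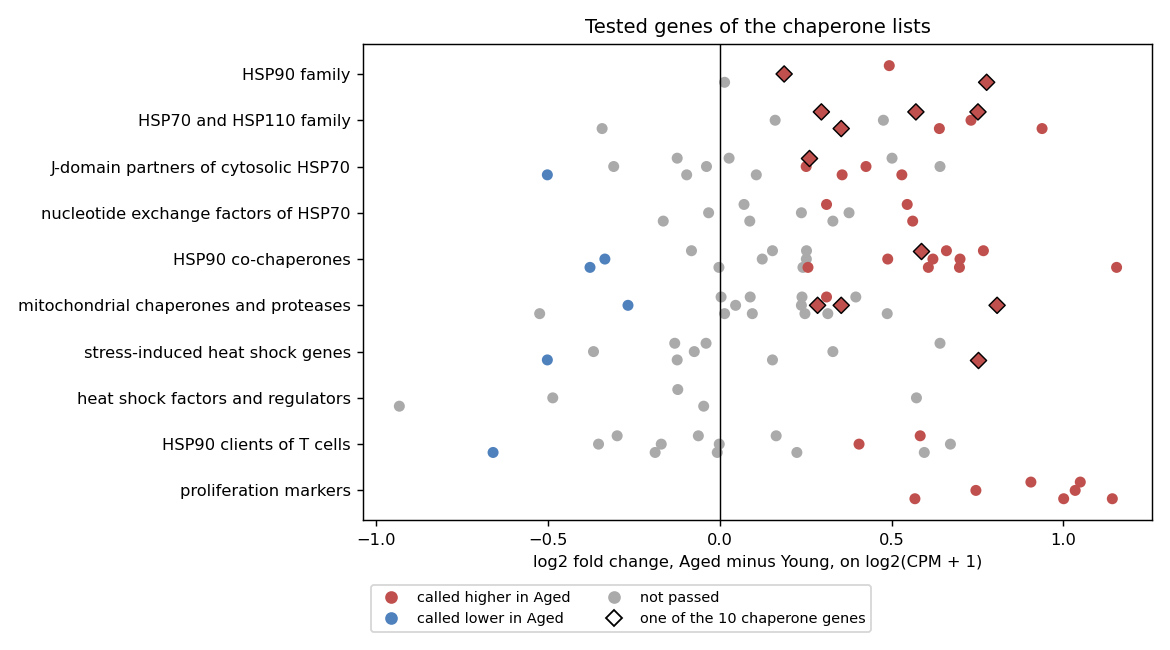
Log2 fold change, Aged minus Young on log2(CPM + 1), of every tested gene in 10 lists around the chaperone system; red genes were called higher in Aged, blue lower, grey did not pass, and diamonds are the 10 chaperone genes. Co-chaperones of HSP90 show 10 red points of 19, and 9 of 18 without Stip1. In the stress-induced list only Hsph1, also a diamond, is red. Of all 10511 tested genes 16.2% were called higher.

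The kinases and receptors that depend on HSP90 in T cells had a median log2 fold change of 0.00, with 2 of 14 tested genes higher, 1 lower and 11 not passing, close to the 16.2% higher and 12.5% lower over all tested genes. Akt1 was at 258 ± 8.67 CPM in Aged and 195 ± 11.5 CPM in Young cells, 1.33-fold higher (limma adjusted p = 0.000324), and Chuk 1.53-fold higher (adjusted p = 0.0242). Jak3 was at 16.7 ± 1.98 CPM in Aged and 27.1 ± 4.28 CPM in Young cells (adjusted p = 0.00947), and its exons overlap those of another gene on the same strand. Without Young replicate 1, 0 clients were called lower and 1 higher, without Young replicate 3 there was 1 higher, and without Aged replicate 1 or Aged replicate 3 there were 2 lower. Jak1 was at 558 ± 60.4 CPM in Aged and 633 ± 14.9 CPM in Young cells and did not pass (adjusted p = 0.0518).

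Markers of dividing cells moved in the same direction as the chaperones. All 7 listed rose, with a median log2 fold change of 1.00, where 16.2% of all tested genes and 31.8% of the abundant ones were called higher. Mki67 was at 454, 474 and 478 CPM in Aged and 255, 197 and 254 CPM in Young libraries, and Mcm7, whose exons overlap small RNA genes, Mcm3 and Pcna were 2.06-fold, 1.87-fold and 1.68-fold higher. Young replicate 2 had the lowest Mki67 of all libraries, and it also held the lowest value of 5 of the 10 chaperone genes, Hsp90aa1, Hspd1, Hsph1, Dnaja1 and Stip1. The same library held the highest Young value of Hspa4, Hspa8 and Hspe1. The part of cell division in the chaperone differences was not tested.

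The chaperone profiles across the 6 libraries were alike in their split by age. Each gene's correlation with the mean standardised profile of the 10, which includes the gene itself, was 0.884 to 0.990, lowest for Hspe1. The genes outside the group that followed this mean most closely were Usp1, Rdx, Pdcd5, Serbp1 and Rnf126, at r = 0.998 to 1.00 over 6 libraries. Since the libraries fall into 2 groups, such values mostly record the difference between groups, and 594 other tested genes had r above 0.95. Outside the 10, 1312 tested genes had r above that of Hspe1. Usp1, which encodes a ubiquitin protease, was at 309, 304 and 326 CPM in Aged and 190, 184 and 199 CPM in Young libraries.

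Reads of some members could be shared with near-copies. Of the 50-base words in the last 300 bases of the annotated coding transcripts, 73.7% for Hspa8, 52.3% for Dnaja1, 43.8% for Hspe1, 39.2% for Hspd1 and 37.6% for Hsp90aa1 also occur in transcripts of other genes. These are processed pseudogenes for Hspa8, Dnaja1, Hspd1 and Hsp90aa1, and for Hspe1 mainly the protein-coding gene AC117239.2, which was listed at no more than 3.84 CPM in any library. The counts of these 5 genes are uncertain, because the treatment of reads with several matches is not given. The percentages count words pooled over all annotated coding transcripts of a gene and are not shares of reads. The pseudogenes have no deposited value. For Hsp90ab1, Hspa4, Hspa9, Hsph1 and Stip1 this share was 0%. Small RNA genes lie within annotated exons of Hspa8 and Dnaja1 on the same strand, and exons of Dnaja1 overlap those of Smu1 and Gm6297 on the other strand.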

How the data were processed

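Per the labels' protocols, libraries were made with the QuantSeq 3' mRNA kit from 3 Aged and 3 Young samples. The submitters' processing notes name the build GRCm38 (mm10). The aligner, the counting program and its annotation are, in the sources used here, not given. The deposited values are CPM, which the authors scaled to 1000000 per library. Divided by each library's step, 100% of values came out whole (tolerance 0.001 reads), so whole reads were recovered (edgeR called 1443 genes higher and 1557 lower on them), and 1 read was worth 0.359 to 0.512 CPM. One identifier was blank and left out. Symbols were found for 25599 of 25654 identifiers. The file of Aged replicate 2 heads its column as replicate 3, and the record that ties files to samples was followed.

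The main test was limma 3.58.1 (R 4.3.3) with an intensity trend on log2(CPM + 1), after removal of genes averaging under 1 CPM, with age group as sole term and Benjamini-Hochberg adjustment over all tested genes. Log2 fold changes from limma are on log2(CPM + 1), which understates changes of low genes. Those of edgeR and DESeq2 are estimated from whole reads. Log2 differences of the ratios between paired genes use CPM with nothing added, and other folds are ratios of mean CPM. Scripts were tested on simulated data. The 95% limits come from limma and reflect the spread between libraries, while the floors (3 reads for a count of 0) cover counting error only, since no molecular identifiers are described. Replicates differed by more than counting noise (chi-square per degree of freedom 1.75 to 3.01 within groups). The main test used CPM without further scaling. The alternatives were TMM and RLE scaling, other filters and pseudocounts, edgeR 4.0.16 (with TMM) and DESeq2 1.42.0 on the whole reads, the replicate block, and leaving out each library. The TMM factors were 1.01 to 1.03 in Aged and 0.959 to 0.994 in Young libraries.

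Genes were named by rule: the 10 members, up to 4 genes with the smallest p per list, 8 fixed genes, and the 5 most like the members' mean profile. Fkbp5, Sugt1 and Cdc37 fall outside this rule. Members and lists were chosen with earlier results of these data known.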

Additional observations from a re-analysis of the deposited data

How the results depend on the processing

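All 10 chaperone genes were higher in Aged cells under each of 15 alternatives, which reuse the same 6 libraries. The groups did not overlap for any of the 10, so leaving out a library could not reverse a direction. The other filters and the replicate block left their log2 fold changes as they were. Of the 150 gene and alternative pairs, 145 kept the call. Hsp90ab1 lost it with TMM scaling (log2 fold change 0.13, adjusted p = 0.0674) and edgeR (0.13, adjusted p = 0.0532), and Dnaja1 with DESeq2 (0.21, adjusted p = 0.102), without Aged replicate 3 (0.20) and without Young replicate 2 (0.23). Leaving out each library gave log2 fold changes of 0.20 to 0.30 for Dnaja1, and 9 to 10 of the chaperone genes were called. More genes were called lower than higher with TMM scaling (1432 higher, 1549 lower), RLE scaling (1451 higher, 1532 lower) and edgeR (1443 higher, 1557 lower). The edgeR run also scales by TMM, so it is not a separate check of the scaling. DESeq2 called 952 genes higher over all genes, against 1701 with limma, and 1017 lower against 1313, and leaving out each library gave 1322 to 1582 higher and 1011 to 1207 lower. Deviations from the group means correlated at -0.026 to 0.0293 between same-numbered libraries of the groups, and at -0.0399 to 0.0602 between differently numbered ones. With 3 libraries per group this cannot show whether the samples were paired. With the replicate block all 10 genes were still called, with 1725 genes higher and 1336 lower over all genes. With TMM scaling and with edgeR alike, 2 mitochondrial genes, 2 stress-induced genes and 3 HSP90 clients were called lower, against 1 of each, and with TMM scaling 1 heat shock factor was, against 0. Leaving out each library gave 3 to 5 J-domain genes higher and 0 to 1 lower, 1 to 2 exchange factors higher, 0 to 2 mitochondrial genes lower, 0 to 1 stress-induced genes lower, 0 to 1 heat shock factors higher and 0 to 1 lower, and 1 to 3 clients higher and 0 to 2 lower. The causes were not tested. Leaving out each library gave log2 ratio differences of 0.53 to 0.64 for Hsp90aa1 to Hsp90ab1, 0.38 to 0.66 for Hspd1 to Hspe1 and 0.06 to 0.32 for Hsph1 to Hspa4. Exact permutation p was 0.1 in every run for the first ratio, 0.1 or 0.2 for the next and 0.2 to 0.8 for the last. In each of these runs 0.1 is the smallest p possible, so an unchanged 0.1 does not measure stability.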
